A study of Homo sapiens with 6 samples.

Results

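Transcripts of the core factors of nonsense-mediated mRNA decay (NMD) were followed through treatment of K562 cells with the compound HR-19011. The factors were UPF1, UPF2, UPF3A, UPF3B, SMG1, SMG5, SMG6, SMG8 and SMG9, found by gene symbol, and they are 9 of the 46427 genes listed in each library. After 24 h, transcripts of UPF1, SMG8, UPF2, SMG5 and SMG1 were lower in HR-19011 libraries than in vehicle libraries, and the means differed by -42.3% for UPF1 and -20.5% for SMG1. The SMG6 transcript was 19.9% higher, and UPF3A, UPF3B and SMG9 did not pass the test. The 9 transcripts together summed to 176, 180.0 and 183 FPKM in the vehicle libraries and to 141, 144 and 137 FPKM in the HR-19011 libraries, a difference of -21.7% between the means.

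K562 is a human erythroleukemia line, given in the labels as wild type and of bone marrow source. One group of 3 libraries received 0.1% DMSO as vehicle and the other group of 3 received 10 µM HR-19011, both for 24 h, and the DMSO content of the HR-19011 libraries is not stated. HR-19011 is known here only by its code name, and the series title places the study in the HRI, eIF2α and ATF4 branch of the integrated stress response. RNA was polyadenylated and the values are FPKM (fragments mapped to a gene, scaled to transcript length and library size). Nothing says that the 3 libraries of a group were separate cultures, so every p-value below is measured against a spread that may be technical.

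NMD degrades mRNAs on which the ribosome terminates in an unfavourable place, for example upstream of an exon junction complex left by splicing. The helicase UPF1 meets the terminating ribosome, UPF2 and a UPF3 protein join it to the exon junction complex, and the kinase SMG1, held by SMG8 and SMG9, phosphorylates it. Phosphorylated UPF1 is bound by SMG6, an endonuclease that cuts the mRNA, and by SMG5, which helps to call in deadenylation and decapping enzymes. Several of the factors' own mRNAs are known NMD substrates and rise when the pathway is inhibited, and stress that phosphorylates eIF2α is known to dampen NMD.

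Sequences bear on the values in 2 ways, through near-identical copies that share reads and through the promoters. SMG1 has pseudogene copies on the same chromosome, 7 of which are listed in the files. The pair below is an example of a stretch where SMG1 and 1 of these copies are nearly identical, chosen for its likeness: 120 bases of SMG1 exon 23 (GENCODE v29 transcript, GRCh38, chr16:18866656-18866775, minus strand) and the matching stretch of SMG1P7 (chr16:70229773-70229892, minus strand), with the 2 differing bases in capitals.
SMG1: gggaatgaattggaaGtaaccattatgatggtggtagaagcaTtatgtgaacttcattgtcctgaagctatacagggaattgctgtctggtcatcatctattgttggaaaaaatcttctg
SMG1P7: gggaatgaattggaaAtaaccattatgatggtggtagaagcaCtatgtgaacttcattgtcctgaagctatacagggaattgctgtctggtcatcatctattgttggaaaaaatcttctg
It is 1 of 4 candidate matches with 2 mismatches, in SMG1 exons 23 and 28, the fewest among those that differ. Only the first 120 bases of coding exons were searched. SMG1P7 shares less exact sequence with SMG1 than the other copies do. Of all 75-base words in the main SMG1 transcript, 14.0% occur letter for letter in transcripts of other genes, 13.6% in the listed pseudogenes. For UPF3A the share was 32.8%, in UPF3AP1, UPF3AP2 and UPF3AP3, and for SMG8 it was 10.3%, in the overlapping gene model AC099850.2. The other 6 factors shared no such word. The sources used here do not give how the authors divided reads between copies, so the values of SMG1, UPF3A and SMG8 are uncertain to that extent.

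The 250 bases upstream of the start site are printed for UPF1, whose transcript fell most, and for SMG6, the one that rose (RefSeq, GRCh38.p14; UPF1 chr19:18831709-18831958, plus strand; SMG6 chr17:2303786-2304035, minus strand). Capitals mark GC boxes (GGGCGG) and CCAAT boxes (CCAAT), searched on both strands, where matches may overlap.
UPF1: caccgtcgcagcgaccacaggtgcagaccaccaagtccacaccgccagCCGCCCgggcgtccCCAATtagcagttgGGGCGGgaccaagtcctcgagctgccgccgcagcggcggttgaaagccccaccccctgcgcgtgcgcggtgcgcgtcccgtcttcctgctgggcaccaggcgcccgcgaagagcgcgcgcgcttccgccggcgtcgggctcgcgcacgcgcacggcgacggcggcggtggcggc
SMG6: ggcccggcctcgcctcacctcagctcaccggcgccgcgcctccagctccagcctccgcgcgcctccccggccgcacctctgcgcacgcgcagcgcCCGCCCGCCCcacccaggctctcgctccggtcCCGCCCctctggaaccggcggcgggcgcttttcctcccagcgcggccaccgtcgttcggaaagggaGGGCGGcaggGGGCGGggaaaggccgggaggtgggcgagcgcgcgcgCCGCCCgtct
UPF1 held 2 GC boxes and 1 CCAAT box, and SMG6 held 6 GC boxes and no CCAAT box. RefSeq windows matched 8 of the 9 factors. Among them UPF2, UPF3B and SMG5 also held both boxes, UPF3A and SMG1 held GC boxes alone, and SMG9 held neither. The E-box CACGTG was found in UPF2 alone. Neither the cAMP response element TGACGTCA nor the ATF4-type element TGATGNAAN was found in any of the 8 windows. Over all 24885 windows of that length the GC box was present in 41.7%, the CCAAT box in 33.4%, the E-box in 6.44%, the cAMP response element in 1.79% and the ATF4-type element in 3.23%. These matches describe letters, not binding.

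The libraries differed broadly between the groups, which sets the scale for every count below. Of 11856 genes averaging at least 1 FPKM, 84.4% passed the test (limma on log2(FPKM + 1), Benjamini-Hochberg adjusted p under 0.05), 38.0% as lower and 46.4% as higher in HR-19011, and 85.2% did not overlap between the groups. All 9 NMD factors were tested: 5 were lower, 1 was higher, 3 did not pass, and 6 did not overlap. Their share called, 6 of 9, was thus not above that of all tested genes. Their median log2 fold change was -0.31, against 0.07 for all tested genes. Within a group libraries correlated at 0.997 to 0.998 and across groups at 0.891 to 0.894 on the log2 scale. Mitochondrially encoded transcripts took 20.0% to 21.0% of the summed FPKM in vehicle and 13.9% to 14.4% in HR-19011 libraries. All 9 erythroid markers of the K562 line lay at 5 FPKM or more in every library, but their sum was 8670 to 8830 FPKM in vehicle and 3550 to 3740 FPKM in HR-19011 libraries. The globins HBG1 and HBG2 made up most of that sum, with means of 3350 and 4390 FPKM in vehicle and 1310 and 1880 FPKM in HR-19011 libraries. TAL1 did not pass (means 31.3 and 32.0 FPKM), and the rest passed as lower, TFRC only from 151 to 135 FPKM. Of 8 markers of other cell types, 5 were under 1 FPKM in every library, MS4A1 was listed at 0, and the list summed to 45.1 to 46.6 FPKM against 34.7 to 36.8 FPKM. The rest were not absent: EPCAM fell from a mean of 32.5 to 20.3 FPKM, while LYZ rose from 11.6 to 12.8 FPKM and PECAM1 from 1.12 to 1.64 FPKM. The part of these shifts in the results on NMD factors was not tested. In bulk RNA, fewer cells of a type and less RNA per cell cannot be told apart.

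UPF1, the RNA helicase at the centre of the pathway (gene at chr19:18831959-18868230, plus strand, GRCh38.p14), stood at 39.7, 40.8 and 39.8 FPKM in the vehicle libraries and at 23.1, 23.9 and 22.4 FPKM in the HR-19011 libraries. Every HR-19011 library lay far below every vehicle library. The mean went from 40.1 ± 0.608 to 23.1 ± 0.718 FPKM (SD, n = 3), 1.73-fold lower, with a log2 fold change of -0.77 (SE 0.033; limma adjusted p = 3.87e-08). UPF1 had the largest change of the 9, and 11.4% of all tested genes had a lower log2 fold change. UPF2, the adaptor between UPF1 and the UPF3 proteins (chr10:11920022-12043170, minus strand), gave 12.9, 12.1 and 12.9 FPKM in vehicle and 9.26, 9.82 and 9.06 FPKM in HR-19011 libraries. The groups did not overlap, and the fall was 1.34-fold (log2 fold change -0.39, SE 0.044; limma adjusted p = 2.88e-05). The balance of the 2 transcripts differed between the groups: the UPF2 to UPF1 ratio of FPKM was 0.324, 0.296 and 0.323 in vehicle and 0.4, 0.411 and 0.404 in HR-19011 libraries. Its mean was 0.314 ± 0.0159 and 0.405 ± 0.00566 (SD, n = 3), with no overlap (exact two-sided permutation p = 0.1, the smallest that 3 against 3 libraries allow). The log2 ratio of group means was 0.37, and 0.15 with quantile normalization.

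UPF3A and UPF3B are paralogs that link UPF2 to the exon junction complex. UPF3A (chr13:114281601-114305817, plus strand) was measured at 24.5, 25.6 and 25.6 FPKM in vehicle and 23.7, 25.4 and 23.8 FPKM in HR-19011 libraries. UPF3B (chrX:119805311-119852963, minus strand) was measured at 15.3, 14.7 and 17.3 FPKM in vehicle and 14.7, 15.1 and 12.9 FPKM in HR-19011 libraries. Both genes overlapped between the groups. Their log2 fold changes were -0.05 (SE 0.0381; limma adjusted p = 0.209) for UPF3A and -0.14 (SE 0.0716; limma adjusted p = 0.0995) for UPF3B. These calls depended on how libraries were scaled. With TMM scaling both passed as lower, at -0.14 (limma adjusted p = 0.00516) and -0.22 (0.0133), and with quantile normalization UPF3B passed at -0.17 (limma adjusted p = 0.0447). UPF3A was slightly positive with TPM, 0.07, and with quantile normalization, 0.03, passing in neither. The UPF3A to UPF3B ratio was 1.61 ± 0.132 in vehicle and 1.71 ± 0.117 in HR-19011 libraries (SD, n = 3; exact permutation p = 0.4), with overlapping groups. Its log2 ratio of group means was 0.09, and 0.21 with quantile normalization (exact permutation p = 0.1). The 4 UPF transcripts together went from 93.8 ± 1.64 to 71.1 ± 3.04 FPKM, without overlap (exact permutation p = 0.1), and UPF1 made up most of that difference.

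**Figure D1:**
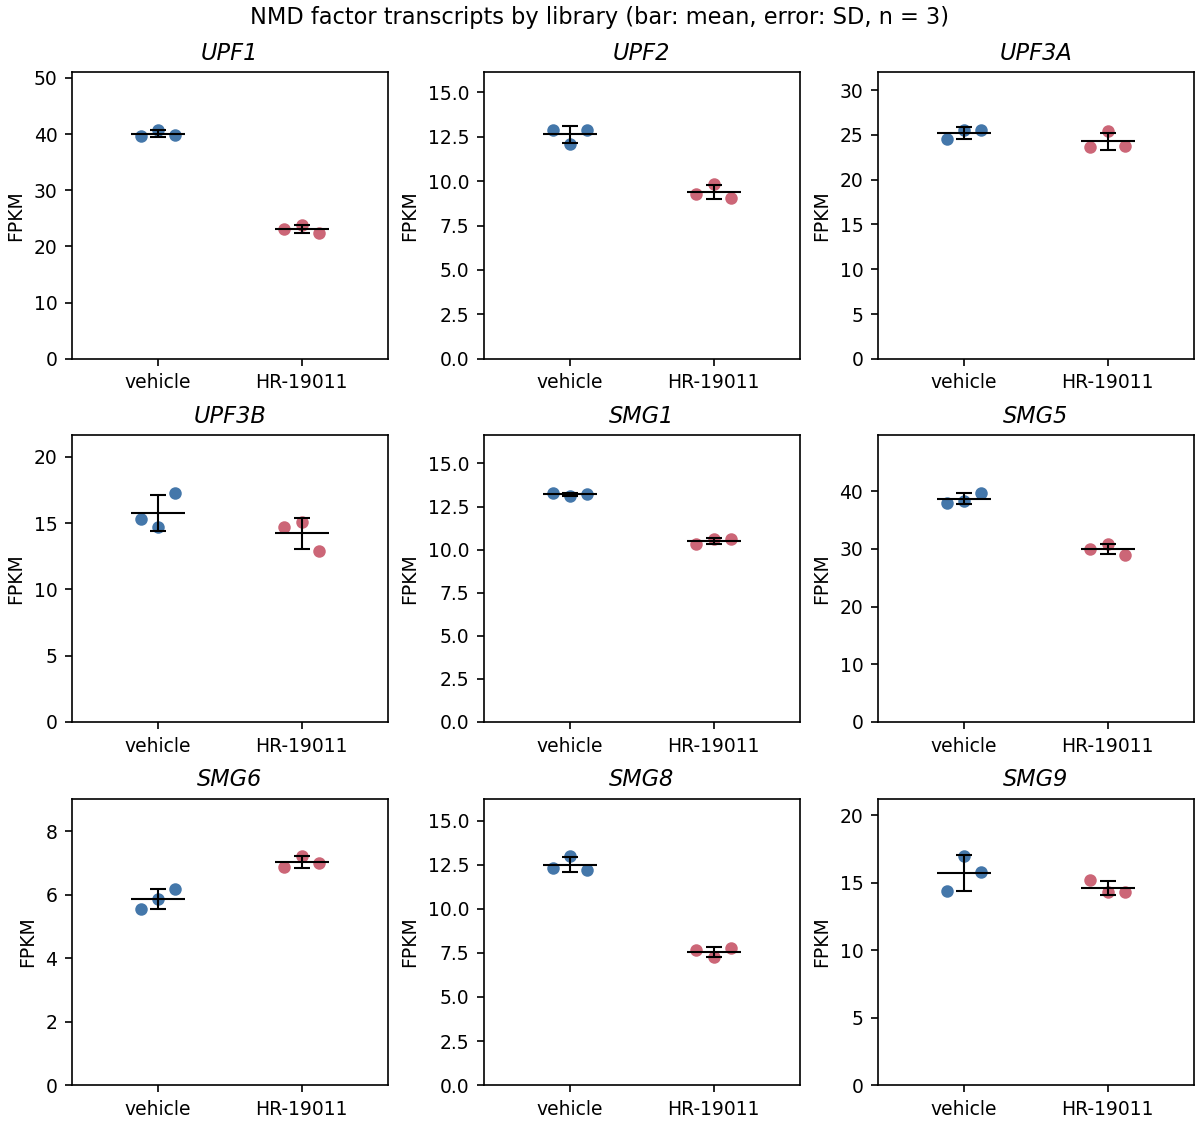
FPKM of the 9 NMD factors in each library (y axis from 0, FPKM), with vehicle in blue and HR-19011 in red; points are libraries, the long bar is the mean and the error bar the SD of 3 libraries. UPF1, UPF2, SMG1, SMG5 and SMG8 lay lower in every HR-19011 library than in any vehicle library, SMG6 lay higher, and UPF3A, UPF3B and SMG9 overlapped.

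In the kinase complex, SMG8 changed most. SMG8, a subunit that restrains the SMG1 kinase (chr17:59210035-59215230, plus strand), was at 12.3, 13.0 and 12.2 FPKM in vehicle and 7.69, 7.25 and 7.76 FPKM in HR-19011 libraries. It was 1.65-fold lower without overlap (log2 fold change -0.65, SE 0.0429; limma adjusted p = 6.61e-07), the second largest fall of the 9. SMG1, the PI3K-like kinase that phosphorylates UPF1 (chr16:18804860-18926408, minus strand), was at 13.3, 13.1 and 13.2 FPKM in vehicle and 10.3, 10.6 and 10.6 FPKM in HR-19011 libraries. It was 1.26-fold lower, with SDs of 0.107 and 0.166 FPKM and no overlap (log2 fold change -0.31, SE 0.034; limma adjusted p = 2.67e-05). SMG9, the partner of SMG8 in the complex (chr19:43727983-43754962, minus strand), was at 14.4, 17.0 and 15.8 FPKM in vehicle and 15.2, 14.3 and 14.3 FPKM in HR-19011 libraries, which overlap. Its log2 fold change of -0.1 (SE 0.058; limma adjusted p = 0.146) did not pass. It passed as lower when vehicle replicate 1, its lowest vehicle library, was left out (-0.16, limma adjusted p = 0.0145) and with TMM scaling (-0.18, 0.0193), and with TPM it was 0.02. The 3 transcripts of the complex summed to 40.0, 43.1 and 41.1 FPKM in vehicle and 33.1, 32.1 and 32.7 FPKM in HR-19011 libraries, a difference of -21.1% between the means without overlap (exact permutation p = 0.1). The ratio of SMG1 to SMG8 plus SMG9 was 0.469 ± 0.031 and 0.473 ± 0.0206 (SD, n = 3; exact permutation p = 0.9).

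Of the 9 factors, the 2 that bind phosphorylated UPF1 moved in opposite directions. SMG5, an adaptor towards deadenylation and decapping (chr1:156249224-156291516, minus strand), was at 37.9, 38.3 and 39.7 FPKM in vehicle and 30.0, 30.8 and 29.0 FPKM in HR-19011 libraries. It was 1.29-fold lower without overlap (log2 fold change -0.36, SE 0.0341; limma adjusted p = 9.04e-06). SMG6, the endonuclease (chr17:2059839-2303785, minus strand), was at 5.56, 5.87 and 6.19 FPKM in vehicle and 6.88, 7.23 and 7.0 FPKM in HR-19011 libraries. All 3 HR-19011 libraries lay above all 3 vehicle libraries, a 1.2-fold rise (log2 fold change 0.23, SE 0.0476; limma adjusted p = 0.00175). Under quantile normalization the SMG6 call was lost (log2 fold change 0.05, limma adjusted p = 0.366), and no factor was then called higher. The exons of SMG6 overlap those of HIC1 and SRR on the opposite strand, by 2419 and 68 of its 10554 exon bases. SRR went from 1.03 to 2.5 FPKM and HIC1 from 0.084 to 0.171 FPKM, and their part in the SMG6 value was not tested.

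The SMG6 to SMG5 ratio does not depend on a factor that scales a whole library. It was 0.147, 0.153 and 0.156 in vehicle and 0.229, 0.235 and 0.241 in HR-19011 libraries. SMG6 therefore stood 1.55 times as high relative to SMG5 after treatment, with SDs of 0.0048 and 0.00603 (n = 3) and no overlap (exact permutation p = 0.1). On the log2 scale the ratio of group means was 0.63, and 0.30 with quantile normalization. SMG5 remained the far more abundant of the 2 transcripts in every library, and their sum was 43.4, 44.2 and 45.9 FPKM in vehicle and 36.9, 38.0 and 36.0 FPKM in HR-19011 libraries (exact permutation p = 0.1).

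**Figure D2:**
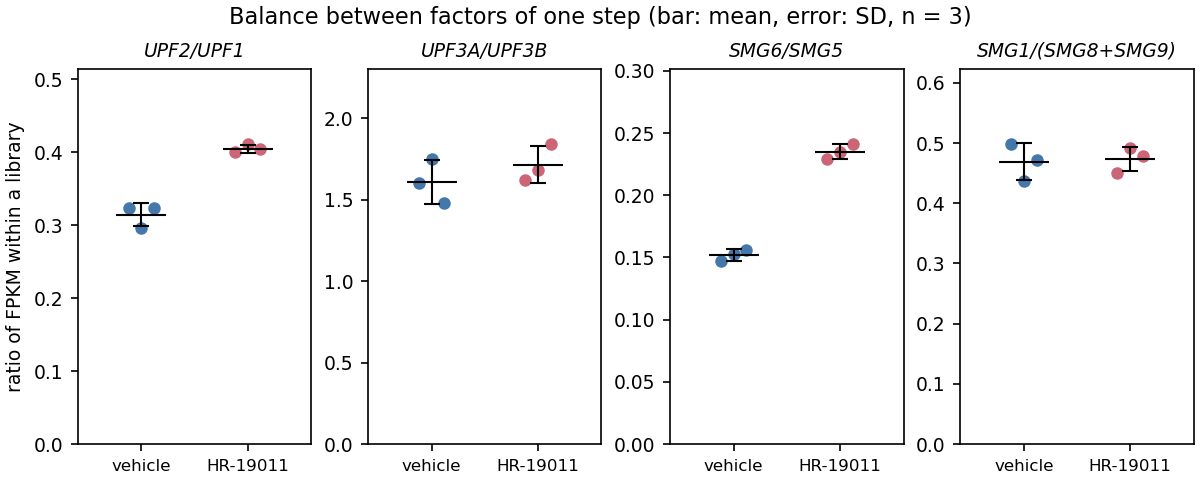
Ratios of FPKM within a library (y axis from 0, no unit) for 4 pairs of factors acting at one step; points are libraries, the long bar is the mean and the error bar the SD of 3. The ratios UPF2 to UPF1 and SMG6 to SMG5 were higher in all HR-19011 libraries, whereas UPF3A to UPF3B and SMG1 to SMG8 plus SMG9 overlapped.

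The order of the factors' levels, compared in FPKM and thus per length, differed between the groups. In vehicle, UPF1 and SMG5 were the most abundant, at 40.1 and 38.6 FPKM, followed by UPF3A at 25.3 FPKM. UPF3B and SMG9 came next and overlapped, then SMG1, then UPF2 and SMG8, which also overlapped, and SMG6 was lowest at 5.87 FPKM. In HR-19011 libraries SMG5 was highest at 30.0 FPKM, and UPF3A at 24.3 FPKM overlapped UPF1 at 23.1 FPKM. SMG8 at 7.57 FPKM had come within 0.53 FPKM of SMG6 at 7.04 FPKM, from which it had differed by 6.61 FPKM in vehicle.

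Direction was the same under 5 scalings of the libraries for 7 of the 9 factors. Against the main fit, TPM moved the median log2 fold change over all genes by 0.12 and quantile normalization moved it by -0.12. With quantile normalization the factors did not shift one way: UPF1, SMG5 and UPF3A moved up and the other 6 moved down. UPF1 stayed between -0.86 and -0.66 and SMG8 between -0.77 and -0.57. The 2 factors that changed sign between scalings were UPF3A and SMG9, neither of which passed with the values as deposited.

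**Figure D3:**
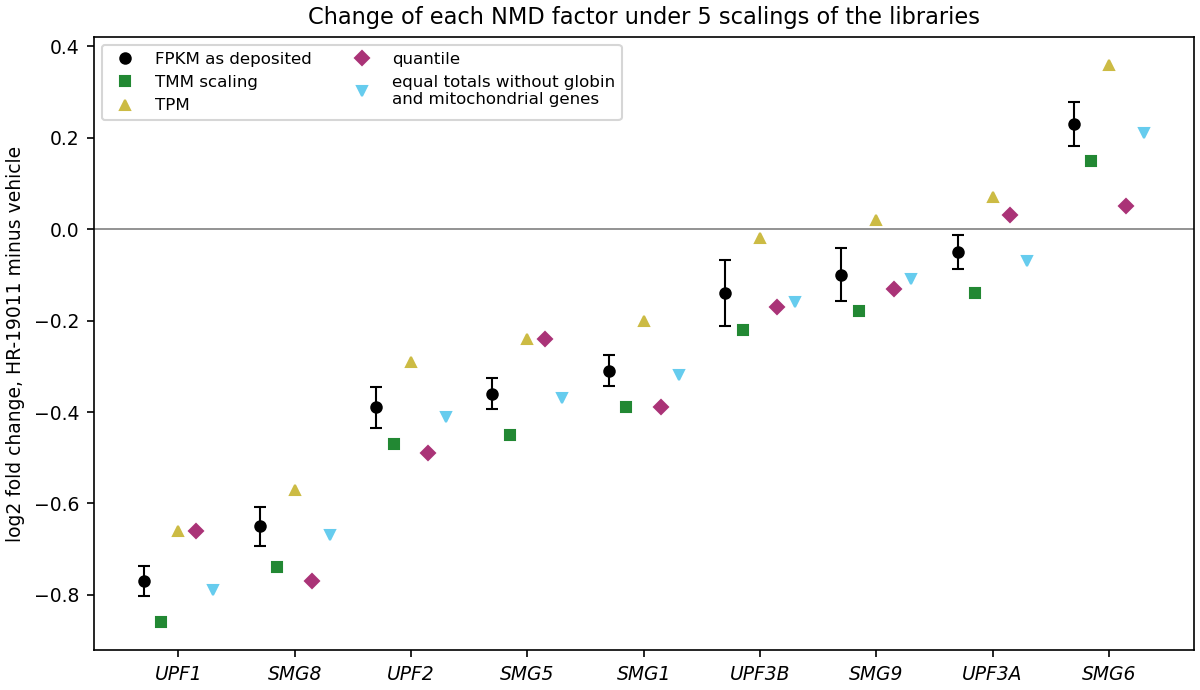
Log2 fold change of each NMD factor (HR-19011 minus vehicle, log2(FPKM + 1) scale) under 5 scalings of the libraries; black points are the deposited FPKM with error bars of 1 SE, other symbols the alternatives. UPF1, SMG8, UPF2, SMG5, SMG1 and UPF3B lay below 0 and SMG6 above 0 under every scaling shown, while UPF3A and SMG9 lay on both sides.

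The pseudogene copies of SMG1 moved in both directions. SMG1P2 and SMG1P5 passed as lower, SMG1P3, SMG1P4 and SMG1P7 as higher, and SMG1P1 and SMG1P6 did not pass. SMG1P7 was at 1.42, 1.33 and 1.28 FPKM in vehicle and 4.46, 3.61 and 3.92 FPKM in HR-19011 libraries, 2.97-fold higher without overlap (log2 fold change 1.09, limma adjusted p = 5.66e-07). It is also the copy with the smallest share of exact words of SMG1, 4.84%, against up to 8.3% for SMG1P2. Summed, the 7 copies were at 32.2 ± 1.27 FPKM in vehicle and 34.5 ± 0.577 FPKM in HR-19011 libraries (SD, n = 3), without overlap (exact permutation p = 0.1). Under quantile normalization the log2 ratio of this sum was -0.17, and with TMM scaling it was 0.00, against 0.10 with the values as deposited. SMG1 and its copies together gave 45.4 ± 1.34 and 44.9 ± 0.735 FPKM, which overlap (exact permutation p = 0.6). The log2 ratio of that total was -0.02 with the values as deposited, -0.11 with TMM scaling, -0.24 with quantile normalization and 0.11 with TPM (exact permutation p = 0.1 for each of these 3 alternatives), so its direction depended on the scaling. Whether reads were divided differently between them in the 2 groups was not tested. The copies of UPF3A stayed below the filter, at 0.361 and 0.435 FPKM for UPF3AP1, 0.212 and 0.226 FPKM for UPF3AP2 and 0.095 and 0.145 FPKM for UPF3AP3 (vehicle and HR-19011 means).

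**Figure D4:**
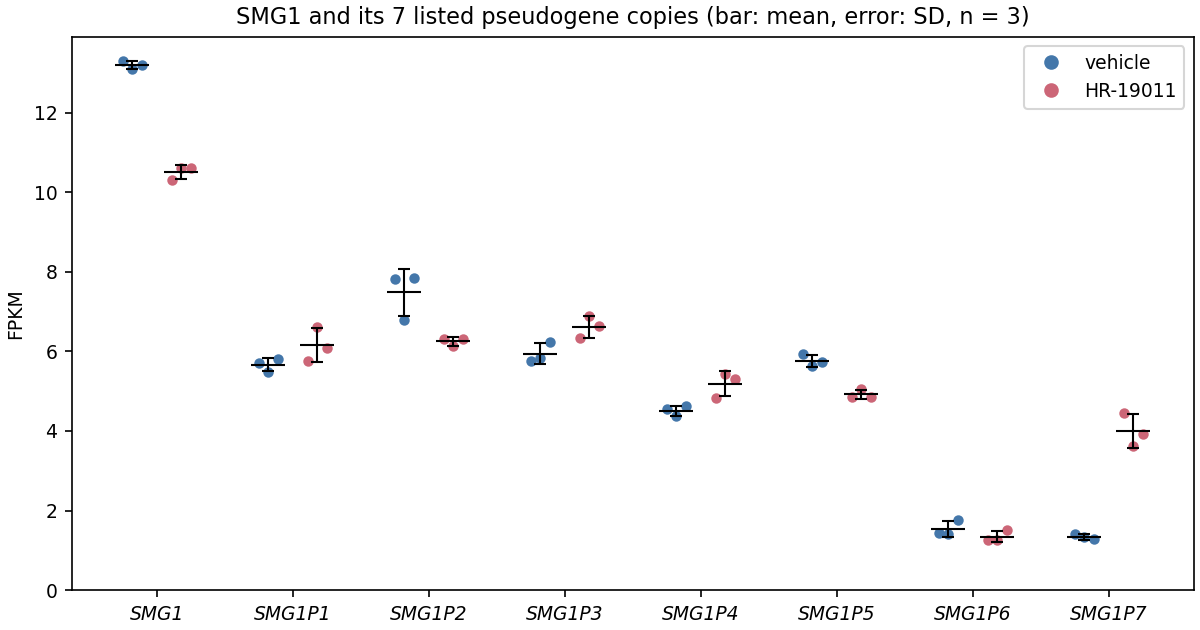
FPKM of SMG1 and its 7 listed pseudogene copies in each library (y axis from 0, FPKM), vehicle in blue and HR-19011 in red, with the mean and SD of 3 libraries. SMG1 lay lower in all HR-19011 libraries, from 13.2 to 10.5 FPKM on average, and SMG1P7 higher, from 1.34 to 4.0 FPKM.

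Of 5 further NMD factors, DHX34, PNRC2 and ICE1 were lower and NBAS and MOV10 higher. DHX34, an RNA helicase that promotes NMD, was at 18.7, 19.5 and 19.7 FPKM in vehicle and 12.8, 13.2 and 12.8 FPKM in HR-19011 libraries, 1.49-fold lower without overlap (log2 fold change -0.54, SE 0.0352; limma adjusted p = 6.08e-07). NBAS, a vesicle-tethering protein with a reported role in NMD, rose 2.98-fold from 18.7 ± 0.323 to 55.8 ± 0.335 FPKM (SD, n = 3). MOV10, an RNA helicase that associates with UPF1, rose 2.32-fold from 25.1 ± 0.161 to 58.3 ± 0.757 FPKM (SD, n = 3). Both rises were larger than any change among the 9 core factors.

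Genes that work with the factors, chaperones that assemble SMG1 and kinases related to it were mostly lower. Of all tested genes, 38.0% were lower and 46.4% higher. Of 10 exon junction complex genes and partners, 7 were lower, 2 higher and 1 did not pass, with a median log2 fold change of -0.42. The count of higher genes became 1 without vehicle replicate 1, HR-19011 replicate 1 or HR-19011 replicate 2, each left out alone. EIF4A3, the helicase that anchors the complex on RNA, fell from 55.3 to 24.3 FPKM and the splicing activator RNPS1 from 146 to 83.6 FPKM, whereas CASC3, another core subunit, rose from 29.7 to 35.5 FPKM. Of 9 genes of translation termination and mRNA end binding, 7 were lower and 2 higher (median -0.73). Among them the scaffold EIF4G1 fell from 195 to 106 FPKM and the poly(A)-binding protein gene PABPC4 from 149 to 84.4 FPKM, while PABPC1, which competes with UPF1 for the terminating ribosome, rose 1.23-fold from 547 to 576 FPKM in vehicle to 679 to 698 FPKM. All 7 tested genes of the R2TP and TTT complexes, chaperones that assemble SMG1 and related kinases, were lower (median -0.69). RUVBL1, an ATPase of R2TP, fell 2.53-fold from 62.4 to 24.6 FPKM, RUVBL2 fell 2.14-fold, and TTI1 of TTT fell from 21.5 to 11.9 FPKM. Of the 5 other kinases of the SMG1 family, 4 were lower and 1 higher: PRKDC fell from 81.4 to 45.2 FPKM and ATR from 6.26 to 4.81 FPKM, and ATM rose from 2.77 to 4.71 FPKM.

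Among genes that degrade the mRNA after NMD, the decapping and deadenylation list was split and the exosome and SKI list was mostly lower. Of all tested genes, 46.4% were higher and 38.0% lower. Of 16 decapping, deadenylation and 5′-to-3′ decay genes, 7 were higher, 7 lower and 2 did not pass (median -0.08). The deadenylase PAN2 rose from 4.8 to 9.94 FPKM and XRN1, the cytoplasmic 5′-to-3′ exonuclease, rose 1.92-fold from 3.1 to 5.96 FPKM, while LSM1, which binds the 3′ end of deadenylated mRNAs, fell from 42.2 to 27.0 FPKM. Of 17 genes of the exosome and the SKI complex, counted together with HBS1L and PELO, 12 were lower, 4 higher and 1 did not pass (median -0.31). HBS1L was among the lower genes and PELO among the higher (PELO log2 fold change 0.15, limma adjusted p = 0.00982). The exosome core genes EXOSC5 and EXOSC3 fell 2.42-fold and 2.24-fold, and the SKI subunit SKIC3, listed as TTC37, rose from 14.9 to 23.3 FPKM.

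Reported NMD substrates moved in both directions, as did all tested genes, 46.4% higher and 38.0% lower. The 13 substrates that the integrated stress response is also known to induce were all higher (median log2 fold change 2.73). ATF4, the transcription factor at the head of that response, was at 105, 120.0 and 113 FPKM in vehicle and 332, 241 and 261 FPKM in HR-19011 libraries. ATF3, a stress-induced transcription factor, rose 17.4-fold to 55.4 FPKM, TRIB3, a pseudokinase, rose 9.14-fold to 196 FPKM, and ASNS, asparagine synthetase, rose 7.82-fold to 205 FPKM. For these genes, induction and slower decay cannot be told apart in steady levels of mRNA. Of 8 noncoding hosts of small nucleolar RNAs, 3 were higher and 5 lower (median -0.22). The lower ones included SNHG8, at a log2 fold change of -0.1 (limma adjusted p = 0.0421). The lower count became 4 with TPM, quantile normalization, no filter, no variance trend or a replicate block, and without some single libraries. GAS5 rose 2.48-fold to 493 ± 7.16 FPKM and ZFAS1 rose 1.87-fold, but SNHG16 fell from 62.4 to 39.4 FPKM. Of 13 genes with poison exons or NMD-sensitive isoforms, 9 were lower and 4 higher (median -0.64): the splicing factor SRSF2 fell from 265 to 106 FPKM and HNRNPDL from 88.2 to 46.2 FPKM, and the kinase CLK1 rose from 7.93 to 12.1 FPKM. FPKM per gene adds the productive and the NMD-sensitive isoforms of such genes, so their balance was not measured. Each gene named in these last 4 paragraphs without a p had a limma adjusted p at or below that of ATR, 5.89e-05.

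**Figure D5:**
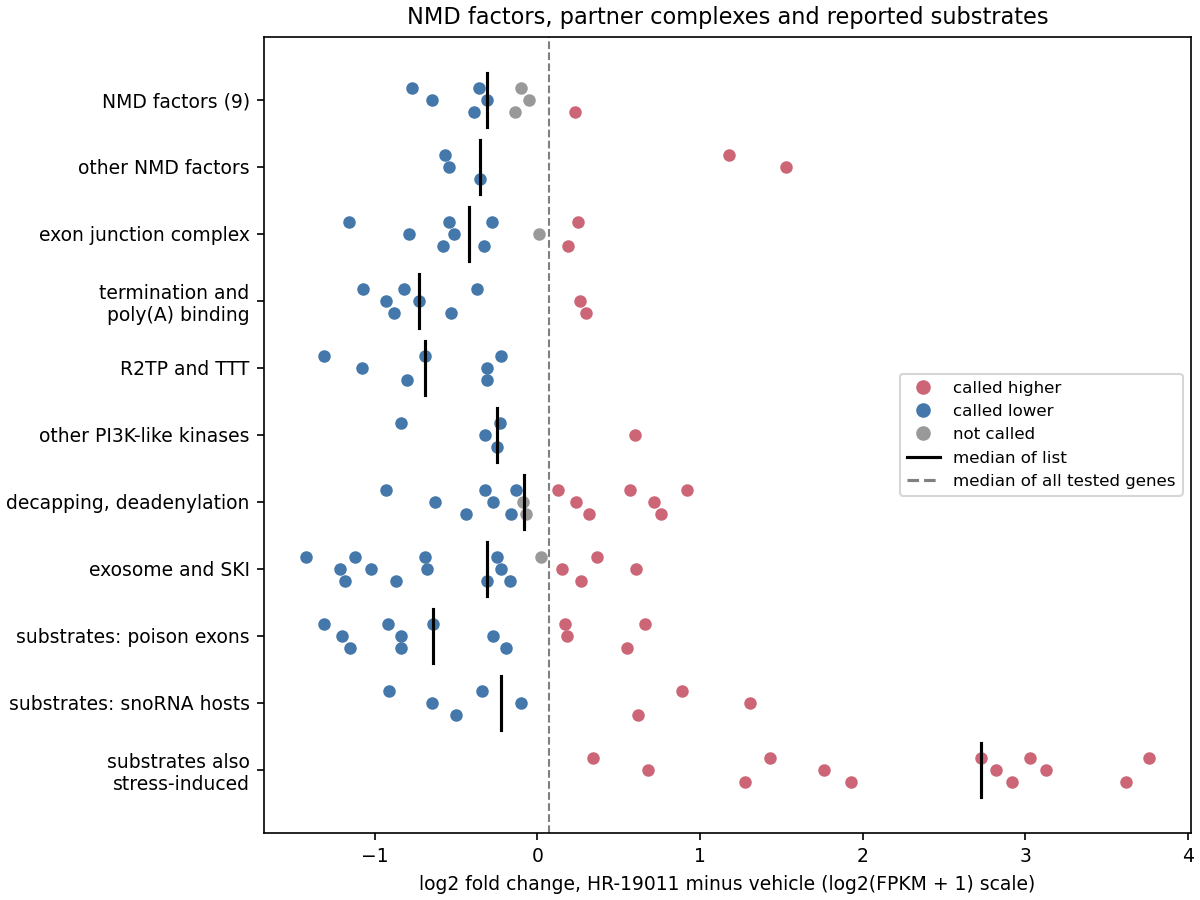
Log2 fold change (HR-19011 minus vehicle, log2(FPKM + 1) scale) of each tested gene in the NMD factors and related lists; points are genes, red called higher, blue called lower and grey not called, with the list median as a black line and the median of all tested genes, 0.07, as a dashed line. The 9 factors had a median of -0.31, all R2TP and TTT genes lay below 0, and the stress-induced substrates all lay above 0.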

How the data were processed

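RNA of 6 K562 libraries, 3 per group by title, was analysed. The deposited values are FPKM, per the file headers, which means that the authors had scaled them to library size and transcript length. Without roles, the submitters' processing notes name StringTie 2.1.3b, HISAT2 2.1.0, HISAT, Bowtie2, DESeq2 1.24.0, SAMtools 1.9, Trimmomatic 0.38 and GRCh38. No counts were used. A search of 500 low values per library for whole multiples of 1 read (tolerance 0.1, 2000 steps tried) gave at best 31.2% to 36.3%, against 20% for 1 fixed step. Reads were not recovered and the depth is unknown. No libraries were duplicates: those of a group shared at most 0.0843% identical values.

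The 11856 genes averaging at least 1 FPKM were compared by limma 3.58.1 (R 4.3.3) as log2(FPKM + 1): group as the only term, mean-variance trend, two-sided, Benjamini-Hochberg adjustment over all tested genes, threshold 0.05. The script was tested on simulated data. Log2 fold changes understate changes of low genes, and folds without log2 are ratios of mean FPKM. Sums and ratios had exact permutation tests, which cannot go below 0.1. Lists are described by counts and medians, with no set test.

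The members and lists were chosen with earlier results of these data known. The genes named are the 9 factors, up to 3 genes with the smallest p per related list (with both directions represented where both were called), the 3 nearest profiles to the factors with the largest and smallest change, ATF4, GAS5 and the copies. One gene of the lists is not reported here and was left out of their counts. Other genes named in lists, SRR and HIC1 were chosen after their values were seen. Positions and promoters are from RefSeq on GRCh38.p14 and transcripts from GENCODE v29.

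Alternatives were pseudocounts of 0.1 and 5, no filter, a 5 FPKM filter, no variance trend, TMM scaling over tested genes, quantile normalization, TPM, equal totals leaving out mitochondrial and globin genes, each library left out, and a replicate block.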

Additional observations from a re-analysis of the deposited data

How the results depend on the processing

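UPF1, UPF2, SMG1, SMG5 and SMG8 kept their direction and their call under all 16 alternatives. None of these alternatives changes how reads were divided between genes with shared sequence, so that uncertainty remains for SMG1 and SMG8. The number of factors called lower was 5 and became 8 with TMM scaling, and the 1 called higher became 0 with quantile normalization, where SMG6 was 0.05. The median log2 fold change of the factors, -0.31, was -0.23 with a pseudocount of 5, -0.39 with TMM, -0.20 with TPM and -0.24 with quantile normalization. Signs reversed for UPF3A with TPM (0.07) and quantile normalization (0.03) and for SMG9 with TPM (0.02), none of which passed. Among log2 ratios of group means, the sum of SMG1 and its copies reversed with TPM (0.11), the copies alone with quantile normalization (-0.17), and SMG1 over SMG8 plus SMG9 with quantile normalization (-0.01) and when single libraries were left out (range -0.03 to 0.06, against 0.01). The cause was not tested. The labels do not say whether the replicate numbers pair the libraries. Deviations of same-numbered libraries correlated at -0.0343, -0.00448 and -0.108, which cannot show that libraries were not handled in pairs. With the number as a replicate block 9880 genes were called against 10009, with no factor's call changed. Without a filter 13707 of 26374 genes were called, and requiring a mean of 5 FPKM or more 7050 of 8083, as more or fewer genes were tested. Some small list counts moved: exon junction genes called higher were 1 instead of 2 with TMM scaling, quantile normalization or no filter and without vehicle replicate 1, HR-19011 replicate 1 or HR-19011 replicate 2, and poison-exon genes called higher were 2 instead of 4 with TMM scaling or quantile normalization and 1 with the 5 FPKM filter. Termination genes called higher were 1 instead of 2 with quantile normalization or the 5 FPKM filter. With that filter no other kinase of the SMG1 family was called higher. These drops under the 5 FPKM filter were of genes no longer tested: CLK4, MAP3K14, RP9P, GSPT2 and ATM averaged under 5 FPKM. Depth is unknown, so what it limits could not be stated.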

Other observations

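The profile of UPF1 over the 6 libraries, as log2(FPKM + 1) centred on each gene's mean, lay nearest to those of ZNF330, ROR2 and MFN2, at Euclidean distances of 0.0228, 0.0298 and 0.0334, against a median of 1.07 over all tested genes. ZNF330 went from 33.8 ± 0.312 to 19.5 ± 0.794 FPKM (SD, n = 3), ROR2, a receptor kinase, from 11.7 ± 0.225 to 6.45 ± 0.279 FPKM, and MFN2, a mitochondrial fusion GTPase, from 79.5 ± 1.37 to 45.9 ± 1.58 FPKM. The profile of UPF3A, the factor with the smallest change, lay nearest to ZNF629, DNAJC25 and BRD2, at distances of 0.0269, 0.0322 and 0.0355, against a median of 0.609.

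The annotation holds transcripts of the NMD biotype for 3 of the 9 factors, SMG1, SMG8 and SMG9, and for 45.2% of 10229 tested coding genes with GENCODE models. Genes with such a transcript had a median log2 fold change of 0.08 and those without one 0.06. They were called lower in 37.6% and 39.6% of cases and higher in 47.5% and 46.7%. The 3′ untranslated regions of the main transcripts of the factors had a median length of 1366 bases, from 240 bases for SMG8 to 4719 for SMG1, against 1021 for tested coding genes; long regions of this kind are a known feature of some NMD substrates. No relation between this length and the change was tested.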
